A study of Mus musculus with 12 samples.

Results

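The sebaceous gland genes described here are Scd1, Scd3, Elovl3, Far1, Far2, Fa2h, Acsbg1, Mc5r, Krt79 and Soat1, chosen by gene symbol as genes of sebum lipid synthesis, of the gland's hormone receptor and of its duct. Of these 10 genes, 9 were measured by 16 probe sets, out of 45037 probe sets and 18193 named genes on the array, and Soat1 was not analysed here because no probe set carried its symbol in the annotation used. The arrays measured RNA from the skin of C3H/HeJ mice that had received a graft of alopecic C3H/HeJ skin and had gone on to develop alopecia areata, a loss of hair in which T cells attack the follicle. After the disease was established, 3 of these mice were given topical baricitinib, an inhibitor of the kinases JAK1 and JAK2, and 3 were given the vehicle alone. Each of the 6 mice gave a skin biopsy at week 0, when treatment started, and at week 12, so that there were 12 Affymetrix arrays in 4 groups of 3. All 4 groups were graft recipients of the same strain with established disease, so no group was healthy skin, and no age was given in the labels. A biopsy holds epidermis, follicles, glands, fat and muscle together. Fewer cells of a type and less RNA per cell cannot be told apart in it.

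Sebocytes are epithelial cells that fill with lipid droplets and then break open, releasing their content as sebum into the duct that joins the hair canal. Mouse sebum holds wax esters, which are made from fatty acids and fatty alcohols, together with triglycerides and sterol esters. Desaturases of the Scd family put a double bond into fatty acids, Elovl3 lengthens them, Acsbg1 joins very long chains to coenzyme A, Far1 and Far2 reduce the acyl-CoA to the fatty alcohol, and Fa2h adds a hydroxyl group to fatty acids that go into ceramides. Mc5r is the melanocortin receptor through which sebum output is stimulated, and Krt79 is a keratin of the duct and the infundibulum.

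RefSeq windows of 250 bases before the transcription start were available for 6 of the 10 genes on the GRCm38.p6 assembly. Those of Scd3, Far2 and Acsbg1 are shown because the probe sets of these genes had positive differences with baricitinib, and that of Far1 because its probe sets, unlike those of its paralog Far2, differed in sign among themselves. Each is written 5′ to 3′ on the strand of the gene, with capitals for the motif letters CCAAT and GGGCGG, the latter known as the GC box, searched on both strands. In all, 32851 RefSeq windows were searched in the same way. CCAAT was found in 33.8% of them and GGGCGG in 32.7%.
Scd3 promoter (chr19:44203038-44203287, plus strand): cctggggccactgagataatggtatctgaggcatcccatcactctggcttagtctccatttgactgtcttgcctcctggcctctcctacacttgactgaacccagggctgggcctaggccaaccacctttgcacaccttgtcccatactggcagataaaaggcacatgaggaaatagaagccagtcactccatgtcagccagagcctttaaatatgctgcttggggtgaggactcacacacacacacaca
Far2 promoter (chr6:148047166-148047415, plus strand): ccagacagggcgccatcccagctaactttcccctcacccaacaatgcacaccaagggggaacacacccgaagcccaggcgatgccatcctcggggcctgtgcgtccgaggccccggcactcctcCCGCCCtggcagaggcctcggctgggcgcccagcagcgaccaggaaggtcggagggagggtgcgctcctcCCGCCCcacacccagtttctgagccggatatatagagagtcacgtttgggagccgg
Far1 promoter (chr7:113513584-113513833, plus strand): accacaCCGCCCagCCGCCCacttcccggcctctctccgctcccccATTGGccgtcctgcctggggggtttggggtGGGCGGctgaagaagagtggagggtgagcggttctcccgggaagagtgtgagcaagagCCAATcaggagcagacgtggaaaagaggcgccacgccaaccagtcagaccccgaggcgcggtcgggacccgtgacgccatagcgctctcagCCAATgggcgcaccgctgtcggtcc
Acsbg1 promoter (chr9:54661886-54662135, minus strand): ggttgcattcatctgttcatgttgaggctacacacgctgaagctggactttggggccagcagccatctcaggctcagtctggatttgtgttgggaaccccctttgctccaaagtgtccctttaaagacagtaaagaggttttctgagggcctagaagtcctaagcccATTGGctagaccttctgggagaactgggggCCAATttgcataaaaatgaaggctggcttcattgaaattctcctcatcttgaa
The Scd3 window held neither motif. In Far2 there were 2 GC boxes, both on the opposite strand, 56 and 126 bases before the start. Far1 held 3 CCAAT boxes, the nearest 25 bases before the start, and 3 GC boxes. Acsbg1 held 2 CCAAT boxes, 53 and 83 bases before the start. The core of a sterol regulatory element, TCACNCCAC, stood in 1.05% of all windows and in none of these. These matches describe the letters of the windows and not the binding of a factor.

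Values are log2 intensities from RMA, and a difference of 1 on this scale is a 2-fold difference. On most arrays the probe sets spread alike, with SDs between 2.73 and 2.85 over all probe sets. The exceptions were baricitinib week 0 replicate 2, with an SD of 2.56, and baricitinib week 12 replicate 1, with 2.61, which also correlated least with the other arrays (medians of 0.945 and 0.951). The study's methods state that a baricitinib array of this experiment at each time failed quality control and was left out, together with a control array at baseline whose experiment is not named, and no mouse is named. All 12 deposited arrays were used here. The counts of sebaceous probe sets called, and Scd3 and Far2, are also given without both arrays of small spread. The difference between 3′ and 5′ control probe sets of Gapdh and actin, a sign of RNA quality, was 1.23 to 1.31 in baricitinib week 12 replicates 2 and 3 and in vehicle week 0 replicate 1, and 2.55 to 4.10 in the other arrays.

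Among the desaturases, Scd3 had the largest difference of the 16 probe sets between week 12 and week 0 of baricitinib treatment. On probe set 1450956_at the 3 baricitinib mice had values of 6.90, 5.15 and 6.34 at week 0 and of 7.59, 9.31 and 9.72 at week 12. The vehicle mice had 6.11, 6.52 and 6.39 at week 0 and 7.36, 6.88 and 6.49 at week 12. All 3 baricitinib values at week 12 were thus above the other 9 arrays, and replicates 2 and 3 were far above them. The rise from week 0 to week 12 with baricitinib was 2.75 on the log2 scale, which is 6.70-fold (SE 0.54, 95% interval 1.55 to 3.94, limma adjusted p = 0.0367). Over all probe sets, 163 were called higher in this comparison, which is 0.362%, and 394 lower, which is 0.875%. Called here means a limma adjusted p below 0.05. This one alone was called among the 16 described here, and none was called lower.

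The call of Scd3 depended on single arrays and on the model. Blocking on the mouse with a fixed term (the replicate block below) gave an adjusted p of 0.111, while a random term for the mouse kept the call. The adjusted p was 0.188 when only the groups compared were fitted. The call was lost when any of 9 arrays was left out, with the log2 difference between 2.25 and 3.13. The adjusted p was then 0.0531, 0.0992 and 0.119 without baricitinib week 0 replicates 1, 2 and 3, and 0.149 without baricitinib week 12 replicate 2 or replicate 3. Leaving out vehicle week 0 replicate 2 gave 0.0635, and leaving out vehicle week 12 replicates 1, 2 and 3 gave 0.0517, 0.0642 and 0.0515. Without both arrays of small spread the difference was 2.90 (adjusted p = 0.00681), and with the 3′ to 5′ difference as a covariate it was 2.27 (adjusted p = 0.0413).

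The other Scd3 probe set, 1423366_at, varied over the arrays much as the first did (Pearson r = 0.92 and Spearman rho = 0.98 over 12 arrays, as a description). The baricitinib mice had 8.23, 6.30 and 7.00 at week 0 and 8.96, 10.49 and 10.49 at week 12. Vehicle mice had 5.71, 8.14 and 6.87 at week 0, and 8.56, 8.47 and 8.00 at week 12. Here too the baricitinib week 12 values did not overlap with any other group, but the week 0 values of both treatments were widely spread. The difference with baricitinib was 2.80 (SE 0.64, adjusted p = 0.0625) and did not pass the threshold.

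Scd1 is the close relative of Scd3 and a known product of sebocytes and fat cells. On probe set 1415964_at it had values of 13.12, 13.08 and 12.77 at week 0 and of 13.26, 13.16 and 13.15 at week 12 in the baricitinib mice. In vehicle mice it had 12.45, 12.96 and 13.06 at week 0 and 12.60, 12.95 and 13.12 at week 12. The groups of the baricitinib mice did not overlap, yet they were close together, and the difference was 0.20 (95% interval -0.31 to 0.71, adjusted p = 0.812). The second Scd1 probe set, 1415965_at, had a difference of 0.43 (95% interval -0.22 to 1.08, adjusted p = 0.646). Whether probes of Scd1 and Scd3 bind transcripts of both genes was not checked here, since the probe sequences were not used.

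**Figure D1:**
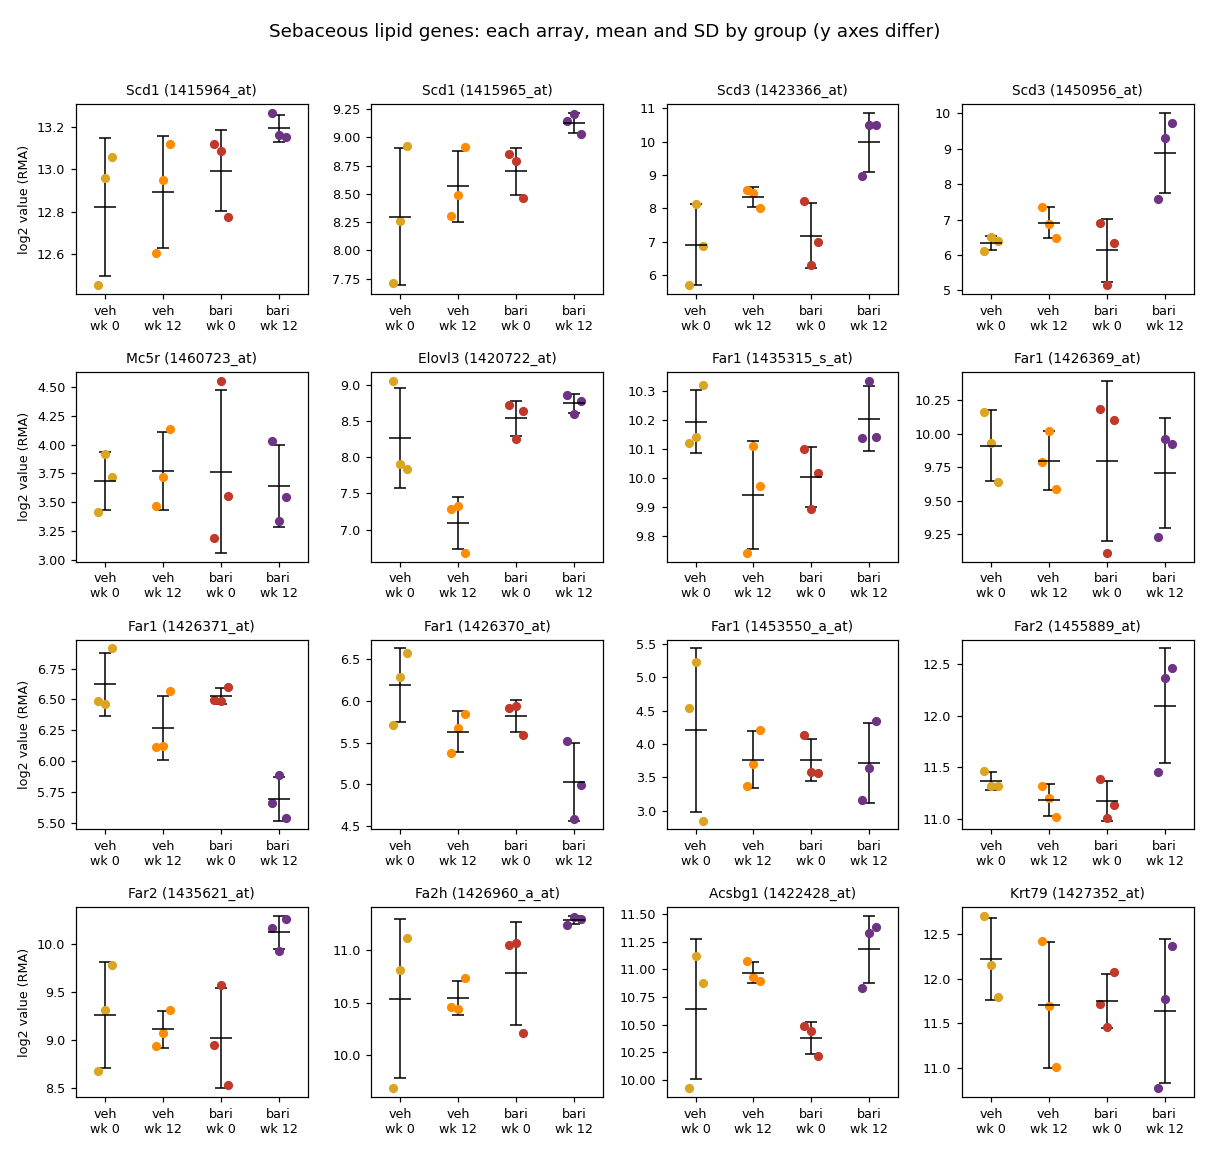
Log2 value (RMA) of each of the 16 probe sets on each of the 12 arrays, by treatment and week, with y axes that differ between panels. Points are single arrays, the long bar is the mean and the whiskers are the SD of 3 mice; Scd3 1450956_at ran from 7.59 to 9.72 with baricitinib at week 12 and from 5.15 to 7.36 in the other groups.

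Elovl3, an elongase of saturated and monounsaturated chains that sebocytes and brown fat use, differed between treatments at week 12 rather than over time with baricitinib. Its probe set 1420722_at had 8.72, 8.26 and 8.63 at week 0 and 8.85, 8.60 and 8.77 at week 12 in the baricitinib mice. In the vehicle mice it had 9.06, 7.90 and 7.84 at week 0 and 7.28, 7.33 and 6.68 at week 12. The vehicle mice at week 12 therefore had the 3 lowest of the 12 values, and the other groups overlapped. At week 12 the baricitinib mice were 1.65 above the vehicle mice on the log2 scale (3.13-fold, SE 0.33, 95% interval 0.93 to 2.36), with an adjusted p of 0.0549, just over the threshold.

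The change of Elovl3 was 0.21 with baricitinib (adjusted p = 0.872) and -1.17 with vehicle (SE 0.33, adjusted p = 1.00). All 3 baricitinib mice had a higher value at week 12 than at week 0, by 0.14, 0.35 and 0.14. All 3 vehicle mice had a lower one, by -1.78, -0.57 and -1.16. The difference between the changes was 1.38 (SE 0.46, adjusted p = 0.583) and did not pass the threshold. The difference at week 12 lay under the threshold with a filter on dim probe sets (adjusted p = 0.0375), with cyclic loess (0.0388) or with vehicle week 0 replicate 1 left out (0.0163). Of the 12 fits with an array left out, 1 passed, and the adjusted p reached 0.192.

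Far2, which with Far1 makes the fatty alcohols of wax esters, had positive differences on both of its probe sets, none of which passed the threshold. On 1455889_at the baricitinib mice had 11.39, 11.01 and 11.14 at week 0 and 11.46, 12.37 and 12.46 at week 12. Vehicle mice had 11.47, 11.32 and 11.32 at week 0 and 11.32, 11.20 and 11.02 at week 12. The week 12 values of replicates 2 and 3 stood out, and replicate 1 lay among the other groups. The difference with baricitinib was 0.92 (1.89-fold, SE 0.27, adjusted p = 0.144), and that against vehicle at week 12 was also 0.92 (adjusted p = 0.191).

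On the other Far2 probe set, 1435621_at, the baricitinib mice had 8.95, 9.58 and 8.54 at week 0 and 10.17, 9.93 and 10.26 at week 12. The vehicle mice had 8.68, 9.31 and 9.78 at week 0 and 8.94, 9.07 and 9.32 at week 12. All 3 baricitinib values at week 12 were above the other 9. The difference with baricitinib was 1.10 (SE 0.32, adjusted p = 0.144) and that against vehicle at week 12 was 1.01 (SE 0.32, adjusted p = 0.234). Averaged over its probe sets, Far2 passed both tests, with 1.01 (adjusted p = 0.0258) and 0.96 (adjusted p = 0.0462). Without baricitinib week 12 replicate 1, 1455889_at passed both as well, with 1.24 (adjusted p = 0.0167) and 1.23 (adjusted p = 0.0240). In each comparison that was 1 of 12 fits with an array left out. The adjusted p of 1455889_at over these fits reached 0.480 with baricitinib and 0.580 against vehicle. Probe set 1435621_at passed in 0 of the 12 fits in both comparisons.

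Far1 had 5 probe sets, which differed in sign. On 1426371_at the values were 6.49, 6.49 and 6.60 at week 0 and 5.66, 5.88 and 5.54 at week 12 with baricitinib, and 6.49, 6.46 and 6.91 at week 0 and 6.12, 6.13 and 6.57 at week 12 with vehicle. The baricitinib week 12 values were the 3 lowest of the 12, with a difference from week 0 of -0.83 (SE 0.22, adjusted p = 0.105). The neighbouring 1426370_at had a difference of -0.78 (adjusted p = 0.281), while 1426369_at had -0.09 (adjusted p = 0.950). On 1435315_s_at, whose suffix marks probes that can match more than 1 transcript, the difference was 0.20 (95% interval -0.22 to 0.63, adjusted p = 0.758). The last, 1453550_a_at, lay under the array median on 11 of the 12 arrays and had -0.04 (adjusted p = 0.986). Averaged over the 5 probe sets the gene had -0.31 (adjusted p = 0.480). The Far1 probe sets thus gave no single direction for the gene.

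Fa2h, the hydroxylase, had 11.06, 11.07 and 10.21 at week 0 and 11.24, 11.32 and 11.30 at week 12 in the baricitinib mice. It had 9.68, 10.82 and 11.12 at week 0 and 10.46, 10.44 and 10.74 at week 12 in the vehicle mice. At week 12 the baricitinib mice lay closely together and above all 9 other arrays. The difference was 0.51 from week 0 (95% interval -0.27 to 1.29, adjusted p = 0.650) and 0.74 from vehicle at week 12 (95% interval -0.04 to 1.52, adjusted p = 0.494).

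Acsbg1, the acyl-CoA synthetase, had 10.49, 10.44 and 10.22 at week 0 and 10.84, 11.33 and 11.38 at week 12 with baricitinib. It had 9.93, 11.12 and 10.88 at week 0 and 11.08, 10.93 and 10.90 at week 12 with vehicle. The baricitinib groups did not overlap with each other, and the difference was 0.80 (1.74-fold, SE 0.30, adjusted p = 0.275). At week 12 the values with baricitinib and vehicle overlapped, with a difference of 0.21 (95% interval -0.44 to 0.87, adjusted p = 0.908).

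Krt79 and Mc5r are not enzymes, and neither passed a test. Krt79 had 11.72, 11.46 and 12.07 at week 0 and 10.77, 11.78 and 12.37 at week 12 with baricitinib, and 12.71, 12.16 and 11.79 at week 0 and 12.42, 11.69 and 11.01 at week 12 with vehicle. All of its groups overlapped, and its difference was -0.11 with baricitinib (95% interval -1.09 to 0.86, adjusted p = 0.955) and -0.07 against vehicle at week 12 (adjusted p = 0.989). Mc5r lay under the array median on all 12 arrays, between 3.19 and 4.55. Its differences were -0.13 with baricitinib and -0.14 against vehicle at week 12, with intervals of -0.89 to 0.64 and -0.90 to 0.63.

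**Figure D2:**
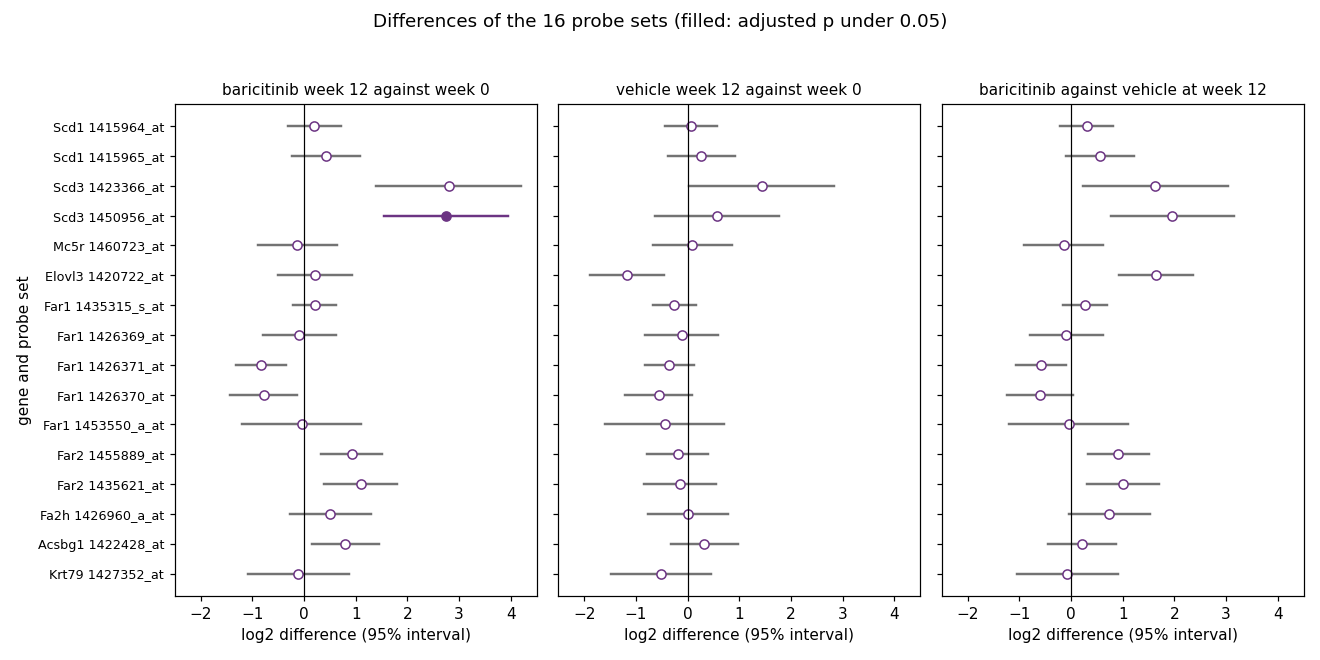
Log2 difference of each of the 16 probe sets, with its 95% interval, for baricitinib week 12 against week 0, vehicle week 12 against week 0, and baricitinib against vehicle at week 12. A filled point passed an adjusted p of 0.05, which Scd3 1450956_at did in the first panel (2.75); the interval of Elovl3 lay above 0 in the third panel (0.93 to 2.36) and below 0 in the second.

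Counted together, 10 of the 16 probe sets had a difference above 0 with baricitinib and 6 below, with a median of 0.20 against 0.0026 over all probe sets. At an unadjusted p under 0.05 there were 5 higher and 2 lower, while 6.23% and 6.05% of all probe sets met this. The week 12 values lay wholly above those of week 0 for 9 of the 16, namely both of Scd1, both of Scd3, both of Far2, Fa2h, Acsbg1 and Far1 1435315_s_at, and wholly below for 2 of Far1. Over all probe sets the shares were 7.97% and 7.91%. Probe sets of the same gene are not independent, and these 9 stand for 6 genes. Without both arrays of small spread 2 of the 16 were called higher, Scd3 1450956_at and Far2 1455889_at (1.15, adjusted p = 0.0271). Over all probe sets 348 were then called higher and 512 lower.

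At week 12, baricitinib against vehicle gave 0 of the 16 past the threshold in limma, where 68 of all probe sets were called higher, which is 0.151%, and 193 lower, which is 0.429%. At an unadjusted p under 0.05 there were 5 higher, namely both of Scd3, both of Far2 and Elovl3, and 1 lower, Far1 1426371_at, beside 4.88% and 6.01% of all probe sets. The Scd3 probe sets had differences of 1.96 (SE 0.54, adjusted p = 0.165) and 1.63 (SE 0.64, adjusted p = 0.363). The groups did not overlap for 9 of the 16 in the higher direction and for 1 in the lower, against 7.44% and 9.69% of all probe sets. Without both arrays of small spread 2 of the 16 were called, Scd3 1450956_at (2.61, adjusted p = 0.00753) and Far2 1455889_at (1.23, adjusted p = 0.0155). Over all probe sets 443 were then called higher and 565 lower. This comparison and the change with baricitinib share the baricitinib week 12 arrays, so neither repeats the other.

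With vehicle, no probe set on the array passed the threshold between week 12 and week 0 (0%), while at an unadjusted p under 0.05 there were 557 higher, which is 1.24%, and 551 lower, which is 1.22%. Of the 16, Scd3 1423366_at was higher and Elovl3 lower at that level. Scd3 had differences of 1.44 on 1423366_at (SE 0.64) and of 0.57 on 1450956_at (SE 0.54), and the value at week 12 was above that at week 0 in all 3 vehicle mice on both. Far2 had -0.19 and -0.15, and Krt79 -0.51 (SE 0.45). The groups did not overlap for 0 of the 16 in the higher direction and for 2 in the lower, Elovl3 and Far1 1435315_s_at, against 4.68% and 3.59% of all probe sets.

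At week 0, before treatment, 0 of the 16 and 0 of all probe sets (0%) passed the limma threshold between the baricitinib and the vehicle mice. At an unadjusted p under 0.05 there were 198 higher (0.440%) and 310 lower (0.688%) in all, and none of the 16. The differences of the 16 lay between -0.47 and 0.40. The groups did not overlap for Far1 1435315_s_at alone, which was lower in the mice that were to receive baricitinib, against 2.73% of all probe sets.

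The change with baricitinib was also set against the change with vehicle. In limma 0 of the 16 and 0 of all probe sets (0%) passed the threshold. At an unadjusted p under 0.05 there were 1359 higher in all, which is 3.02%, and 1466 lower, which is 3.26%, and 4 of the 16 were higher. These were Scd3 1450956_at (2.17, SE 0.77, adjusted p = 0.623), Elovl3 (1.38), Far2 1455889_at (1.11, SE 0.38, adjusted p = 0.597) and Far2 1435621_at (1.24, SE 0.45, adjusted p = 0.642). Scd3 1423366_at had 1.36 (95% interval -0.62 to 3.35). No difference between the treatments in the change of these genes was thus detectable with 3 mice each.

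By mouse, Scd3 1450956_at differed between week 12 and week 0 by 0.69, 4.17 and 3.38 in baricitinib replicates 1, 2 and 3, and by 1.24, 0.37 and 0.10 in the vehicle replicates. Far2 1455889_at differed by 0.07, 1.36 and 1.33 with baricitinib and by -0.14, -0.11 and -0.30 with vehicle. Baricitinib replicate 1 was the lowest of its group on both, and its week 12 array is one of those of small spread. The other is the week 0 array of baricitinib replicate 2, the mouse with the largest difference on both. Its values there, 5.15 for Scd3 and 11.01 for Far2, were the lowest of the 12 arrays. At week 12 the 3′ to 5′ difference was 3.45, 1.27 and 1.31 in baricitinib replicates 1, 2 and 3. On Far2 1435621_at baricitinib replicate 1 had 1.22, between the 0.35 and the 1.72 of the other baricitinib mice.

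**Figure D3:**
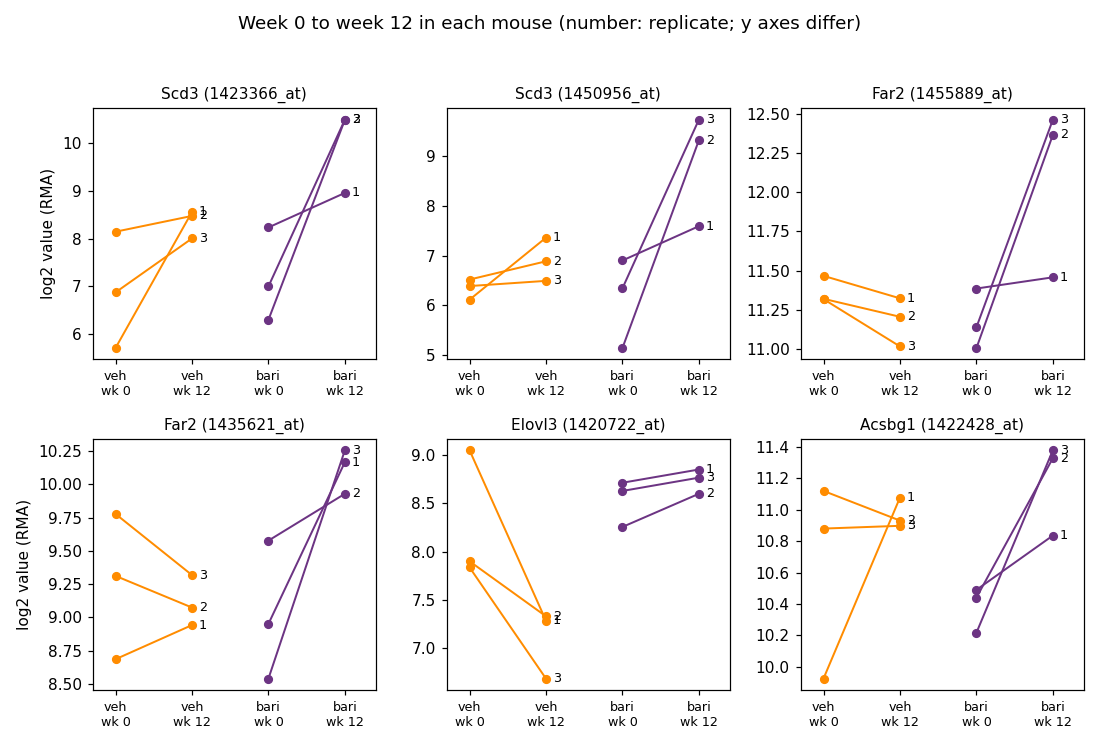
Log2 value (RMA) at week 0 and week 12, joined by a line for each mouse and numbered by replicate, for the probe sets of Scd3 and Far2 and for Elovl3 and Acsbg1, with y axes that differ. Elovl3 had a lower value at week 12 in all 3 vehicle mice (by -1.78, -0.57 and -1.16) and a higher one in all 3 baricitinib mice.

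As a description over 12 arrays, which share groups and depend on a few high values, Scd3 1450956_at varied with Far2 1455889_at (Pearson r = 0.92, Spearman rho = 0.69) and Scd1 1415964_at with Fa2h (r = 0.91, rho = 0.86). Elovl3 varied little with either Scd3 probe set (r = 0.01 and 0.24). Scd3 1450956_at varied inversely with Far1 1426371_at (r = -0.80, rho = -0.77). The 9 genes, each by its probe set of highest mean and scaled to its own spread, were then averaged for each array and set against 18184 other genes. The genes most like that average were Tmem229a (r = 0.93, rho = 0.87), Cers4 (r = 0.93, rho = 0.92), Abca5 (r = 0.93, rho = 0.80), Igfbp3 (r = 0.92, rho = 0.87) and Crp (r = 0.92, rho = 0.80), followed by Arl3, Pnpla5, Lonp2, Pias1 and Fgf18 (r = 0.91 each, rho = 0.79 to 0.88).

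Further genes of the same pathways were counted by their probe set of highest mean. Over all probe sets 1.24% were called in either direction with baricitinib. Of 19 measured genes of fatty acid synthesis, elongation and desaturation, 0 were called higher and 1 lower, with 10 above 0 and a median of 0.04. The gene called was Elovl7, an elongase of very long chains, with 10.95, 11.13 and 11.27 at week 0 and 9.42, 9.59 and 9.49 at week 12 in the baricitinib mice, against 10.89 to 11.46 on the 6 vehicle arrays. It fell by 1.62 with baricitinib (SE 0.22, adjusted p = 0.00723) and was lower than vehicle at week 12 by 1.83 (log2 difference -1.83, adjusted p = 0.00756). All 6 probe sets of Elovl7 had differences below 0 in both comparisons. The fall with baricitinib did not pass when baricitinib week 0 replicate 3 was left out, under the replicate block or when only the groups compared were fitted.

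In the list of fatty acid synthesis, elongation and desaturation, Acacb and Fasn had positive differences that did not pass. Acacb, an acetyl-CoA carboxylase, had 1.20 with baricitinib (SE 0.26, adjusted p = 0.0552) and 0.91 against vehicle at week 12 (adjusted p = 0.185). Fasn, the fatty acid synthase, had 0.89 (SE 0.24, adjusted p = 0.117) and 0.66 (adjusted p = 0.325). Acaca, another carboxylase of this list, had 10.01, 9.94 and 9.79 at week 0 and 10.38, 9.74 and 9.73 at week 12 with baricitinib. With vehicle at week 12 it had 10.17, 10.23 and 10.25. Acly had 12.53, 12.14 and 12.34 at week 0 and 12.35, 12.51 and 12.50 at week 12 with baricitinib. For Acaca and Acly the values of the baricitinib mice at week 0 and week 12 overlapped. Of 18 measured genes of acyl-CoA activation, wax ester and triglyceride synthesis, 0 were called in either direction, with 13 above 0 and a median of 0.27. The change with vehicle also had 13 of the 18 above 0, with a median of 0.29, and baricitinib against vehicle at week 12 had 9 above and 9 below, with a median of 0.06. The largest differences were those of Mogat1, a monoacylglycerol acyltransferase (1.43, adjusted p = 0.0890), the fatty acid transporter Slc27a2 (0.90, adjusted p = 0.535) and the synthetase Acsl3 (-0.87, adjusted p = 0.0868). The wax synthases Awat1 and Awat2 and Dgat2l6 had no probe set with their symbol in the annotation used here.

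Cholesterol synthesis gave 0 called of 16 measured genes, with 7 above 0, 9 below and a median of -0.10. Fdps, the farnesyl diphosphate synthase, had 1.37 (SE 0.78, adjusted p = 0.539), Lss, the lanosterol synthase, -0.69 (adjusted p = 0.527), and Insig1, which holds back sterol synthesis, -0.57 (adjusted p = 0.386). Against vehicle at week 12, 13 of these 16 were below 0, with none called and a median of -0.25. Of 20 measured regulators and lineage genes of sebocytes, 0 were called, with 15 above 0 and a median of 0.28. The lipid droplet protein Cidea had 1.51 (SE 0.96, adjusted p = 0.603), the melanocortin receptor partner Mrap 1.38 (SE 0.41, adjusted p = 0.149) and the stem cell marker Lgr6 1.32 (SE 0.46, adjusted p = 0.228). Pparg, a nuclear receptor of sebocyte and fat cell differentiation, had 1.06 (95% interval -0.36 to 2.47, adjusted p = 0.581), and Srebf1, a regulator of fatty acid synthesis, 0.11 (adjusted p = 0.914), both chosen after their values were seen.

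Of 14 measured genes of sphingolipid and ceramide synthesis, 0 were called higher and 1 lower with baricitinib, and 1 higher and 1 lower against vehicle at week 12. Over all probe sets 0.580% were called in the latter. Degs2, a desaturase and hydroxylase of ceramides, had 6.56, 7.39 and 7.73 at week 0 and 5.66, 4.90 and 4.41 at week 12 with baricitinib, and 7.00 to 8.28 on the vehicle arrays. It fell by 2.24 with baricitinib (SE 0.36, adjusted p = 0.0170), and its difference from vehicle at week 12 was -2.88 (SE 0.36, adjusted p = 0.00861). The first call was lost without baricitinib week 0 replicate 2 or 3 or baricitinib week 12 replicate 2 or 3 and under the replicate block, and the second without vehicle week 12 replicate 1. Both were lost when only the groups compared were fitted. Cers4, a ceramide synthase, had 8.16, 8.11 and 7.43 at week 0 and 8.71, 9.05 and 9.18 at week 12 with baricitinib. Its vehicle values were 7.45, 7.69 and 8.33 at week 0 and 7.35, 7.48 and 7.49 at week 12. On this probe set it was higher with baricitinib than with vehicle at week 12 by 1.54 (SE 0.28, adjusted p = 0.0388). Its change with baricitinib was 1.08 (adjusted p = 0.102). The other Cers4 probe sets, of similar mean level, were not called against vehicle at week 12. They had 1.46 (SE 0.56, adjusted p = 0.348) and 1.39 (SE 0.37, adjusted p = 0.146). Their changes with baricitinib were 0.95 (adjusted p = 0.560) and 0.70 (adjusted p = 0.498). The Cers4 call was lost when any of 7 arrays was left out. They were baricitinib week 0 replicate 1, baricitinib week 12 replicates 2 and 3, vehicle week 0 replicate 2 and each of the vehicle arrays of week 12. It was also lost with median centring or when only the groups compared were fitted. Sptlc3, a subunit of serine palmitoyltransferase, had 0.75 with baricitinib (adjusted p = 0.353).

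Markers of other cells of the biopsy moved over the same arrays. All 10 measured adipocyte markers had differences above 0 with baricitinib, with a median of 1.88, and 2 were called, the lipid droplet gene Cidec (2.76, adjusted p = 0.0176) and the lipase Pnpla2 (1.47, adjusted p = 0.0364). Both calls were lost when baricitinib week 0 replicate 3 or baricitinib week 12 replicate 2 or 3 was left out, with the replicate block and when only the groups compared were fitted. Only 1 marker was called without baricitinib week 0 replicate 1, baricitinib week 12 replicate 1, vehicle week 0 replicate 2, or vehicle week 12 replicate 2 or 3, or with cyclic loess or median centring, and 7 were called with the 3′ to 5′ covariate. The mean level of the 10 markers was 7.67 to 9.09 at week 0 and 9.89 to 10.47 at week 12 with baricitinib, and 7.87 to 8.56 and 7.98 to 9.23 with vehicle. None of them lay under the array median on all 3 baricitinib week 12 arrays. Fat cells also use Scd1, Fasn, Acacb, Pparg and Cidea. The part of fat in the values of Scd3, Far2 and the other sebaceous genes was not tested.

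Hair shaft markers had differences below 0 for all 11 measured, with a median of -4.31 and 4 called. Of these markers 1 was called without baricitinib week 0 replicate 1 or 3 or baricitinib week 12 replicate 2 or 3 and under the replicate block, 2 without both arrays of small spread, and 8 without vehicle week 0 replicate 3. Inner root sheath markers had differences below 0 for 8 of 9, with 6 called. This count was 1 without baricitinib week 0 replicate 3, 2 without baricitinib week 0 replicate 1 or 2 or baricitinib week 12 replicate 2 or 3 and under the replicate block, and 3 when only the groups compared were fitted. Of 9 interferon response genes 8 were called lower, with 5 without baricitinib week 0 replicate 3 and 3 when only the groups compared were fitted. Of 8 T cell markers 4 had differences above 0 and 4 below, with a median of -0.04. Among them 1 was called lower, Cd8a (-4.29, adjusted p = 0.00912), and none when only the groups compared were fitted. Of 10 interfollicular epidermis markers none was called, with a mean level of 11.7 to 11.9 at week 0 and 11.8 to 12.2 at week 12 with baricitinib, and none was called of 8 skeletal muscle markers. The sebaceous genes had a median difference of 0.21 by gene in the same comparison. With vehicle, all 11 hair shaft markers were also below 0 (median -0.69), as were all 9 interferon response genes (median -1.08). The inner root sheath markers had 6 above 0 and 3 below (median 0.10). At week 0, all 11 hair shaft and 8 of 9 inner root sheath markers were higher in the mice that were to receive baricitinib (medians 0.93 and 0.90). None of these was called. The part of the hair cycle in the values of the sebaceous genes was not tested.

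**Figure D4:**
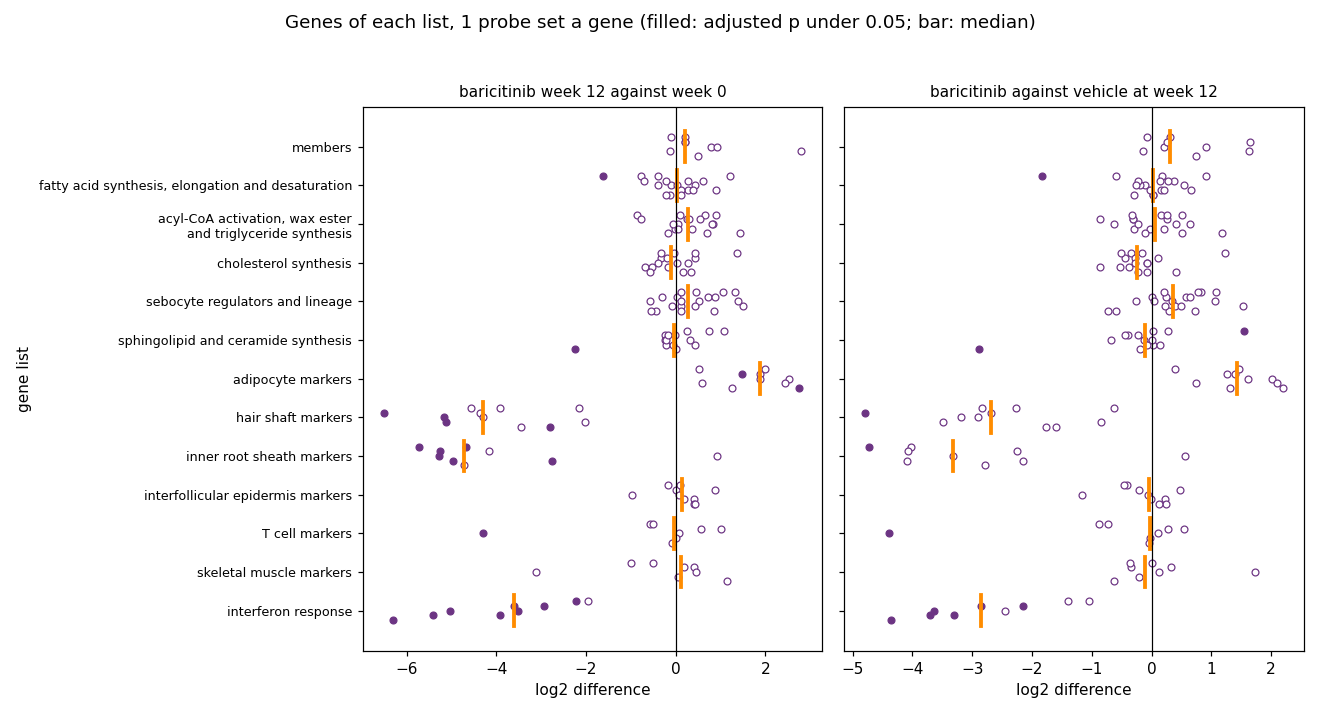
Log2 difference of each measured gene of 13 lists, 1 probe set per gene, for baricitinib week 12 against week 0 (left) and baricitinib against vehicle at week 12 (right). Filled points passed an adjusted p of 0.05 and the bar is the median of a list; in the left panel the adipocyte markers lay around 1.88 and the hair shaft markers around -4.31, while the sebaceous genes had a median of 0.21.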

How the data were processed

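Skin RNA of 6 mice at 2 times was amplified, labelled with biotin and hybridised to Affymetrix mouse genome arrays. RMA, applied by the authors to each experiment as a whole, gave the values, and its version is not given in the sources used here. The deposited log2 values were used with no further normalization or filter. RMA takes the arrays of an experiment together, so that each value depends on the other arrays. The authors' methods report quality control and removal of failed arrays. All 12 deposited arrays were kept here.

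The 64 control probe sets were removed, and 45037 were tested. Probe sets were named from the platform annotation, in which 34945 had 1 symbol, 932 several and 9160 none. In limma 3.58.1 (R 4.3.3), linear models took a mean for each of 4 groups (8 residual and 3.54 prior degrees of freedom), and the Benjamini-Hochberg adjustment covered every probe set, with a threshold of 0.05. Errors are SE or 95% intervals of this fit. The number of arrays limits the precision. The p-values rest on the spread within groups of 3 mice, pooled over the 4 groups and shrunk towards a value common to all probe sets. The main fit had no term for the mouse, so both biopsies of a mouse were treated as independent.

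The genes and the lists were chosen with earlier results of these data known. All probe sets of the 10 genes were named, and of the pathway lists the genes called and the 3 largest differences. Acaca, Acly, Pparg and Srebf1 were named besides these. The labels number each mouse, and the same number at both times was taken as the same mouse. The deviations from the group means of week 0 and week 12 correlated by -0.36, -0.51 and 0.47 in the baricitinib mice and by 0.44, -0.13 and 0.49 in the vehicle mice. Alternatives left out each array in turn, weighted the arrays, removed dim probe sets, let the prior variance follow the level, blocked on the mouse with a fixed or a random term, took 1 probe set or their mean for each gene, rescaled by median centring or cyclic loess, and fitted each comparison on its own groups. Both arrays with the smallest spread left out and the 3′ to 5′ covariate were added after seeing the data. The fit was tested on simulated data in which arrays were drawn independently, without pairing by mouse or differences in array quality. That test therefore cannot show how the calls depend on these. Promoter windows are those of RefSeq. Figures were drawn with matplotlib 3.10.9 in Python 3.11.15.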

Additional observations from a re-analysis of the deposited data

Results flagged for a closer look

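In 3 of the 16 probe sets the value at week 12 was above that at week 0 in all 3 baricitinib mice and below it in all 3 vehicle mice. The share of all probe sets with this pattern was not counted, so the number cannot be set against the whole array. They were Elovl3 1420722_at, with a difference between the changes of 1.38 (limma adjusted p = 0.583), Far2 1455889_at, with 1.11 (adjusted p = 0.597), and Far1 1435315_s_at, with 0.46 (adjusted p = 0.885). None of the 3 differences passed the threshold.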

How the results depend on the processing

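Of 1062 values of the sebaceous probe sets under other settings, 975 kept their direction and their side of the threshold, 11 no longer passed, 42 now passed and 34 changed sign, none of them a called value. This count left out the comparison at week 0. For the change with vehicle and the difference of changes it held only some of the 16. In the main fit only Scd3 1450956_at with baricitinib was called, so the other values that kept their side had not passed before either. The 11 were all Scd3 1450956_at with baricitinib, for which the cause was not tested. A fixed replicate block for the mouse left 158 probe sets called with baricitinib, 0 of them among the 16, and the block changed no call of the 16 other than Scd3. Fitting only the groups compared left 97 called with baricitinib (0 of the 16 higher), 55 against vehicle at week 12, and 1 with vehicle. Array weights did not converge and gave 1 array a weight of 32.1. They called 11277 with baricitinib (5 of the 16 higher and 2 lower), 4986 with vehicle (3 of the 16 lower), 11205 against vehicle at week 12 (7 higher and 1 lower), 5712 at week 0 (1 higher and 5 lower), and 6590 for the difference of changes (6 of the 16 higher). Without both arrays of small spread, 860 were called with baricitinib (2 of the 16 higher), 1 with vehicle, 1008 against vehicle at week 12 (2 of the 16) and 35 for the difference of changes. With the 3′ to 5′ covariate there were 1763 with baricitinib (2 of the 16), 792 against vehicle at week 12 (2 of the 16) and 17 for the difference of changes. The dim filter called 2 of the 16 higher with baricitinib, where 231 probe sets were called higher and 502 lower in all. Against vehicle at week 12 it called 1 of the 16, beside 80 higher and 273 lower in all. Cyclic loess and median centring each called 1 of the 16 against vehicle, and loess called 1 probe set for the difference of changes. Over all probe sets, loess called 88 higher and 200 lower against vehicle at week 12, and median centring 51 and 194. With 1 probe set per gene, 1 sebaceous gene was higher against vehicle, where 72 genes were higher and 211 lower in all, and 12 genes were called for the difference of changes. With the mean of the probe sets, 2 sebaceous genes were higher with baricitinib and 2 against vehicle, and 7 genes were called for the difference of changes. Over all genes, that setting called 208 higher and 384 lower with baricitinib, and 82 and 178 against vehicle at week 12.

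With single arrays left out, 70 to 1364 probe sets were called with baricitinib (0 to 3 of the 16 higher), 32 to 625 against vehicle at week 12 (0 to 2 of the 16 higher), 0 to 55 for the difference of changes, and 0 to 1 with vehicle. The largest of these counts each came without baricitinib week 12 replicate 1. The count with baricitinib moved by over 1.5 times without any array other than vehicle week 0 replicates 1 and 3 and vehicle week 12 replicates 1 and 3, and the count against vehicle without any array other than baricitinib week 0 replicate 2 and vehicle week 0 replicates 1 and 3.

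The sign changes were in differences close to 0. With baricitinib, array weights gave 0.0071 for Mc5r and -0.040 for Elovl3, the covariate gave 0.23 for Mc5r and -0.12 for Elovl3, and the mean of the probe sets gave -0.31 for Far1 where 1435315_s_at had 0.20. Without both arrays of small spread Mc5r had 0.069, Far1 1453550_a_at 0.15 and Krt79 0.18. With single arrays left out, Mc5r ranged from -0.42 to 0.27, Far1 1426369_at from -0.44 to 0.15, Far1 1453550_a_at from -0.36 to 0.23 and Krt79 from -0.48 to 0.32. Against vehicle at week 12, array weights gave 0.034 for Far1 1426369_at, 0.046 for Far1 1453550_a_at and 0.010 for Krt79. The mean of the probe sets gave -0.21 for Far1 and the covariate 0.20 for Mc5r. Without both arrays of small spread Far1 1426369_at had 0.14, Far1 1453550_a_at 0.23 and Krt79 0.36. With single arrays left out these ranged from -0.22 to 0.14, -0.36 to 0.23 and -0.44 to 0.36, and Mc5r from -0.33 to 0.044. With vehicle, Far2 1435621_at ranged from -0.43 to 0.11 with single arrays left out. Signal under the array median, on 12 arrays for Mc5r and on 11 for Far1 1453550_a_at, limits what can be said of these.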
